A study of Mus musculus with 8 samples.

Results

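Long interspersed nuclear elements (LINEs) are the repeats studied here, through the ERRα ChIP-seq peaks whose centre the authors' annotation placed inside one. A peak was a member when its detailed annotation named a LINE and it was not annotated as a promoter, and members were then split by repeat family. The rule found 10848 LINE peaks among the 126927 peaks of the 4 lists. They comprised 2353 of 25427 peaks in WT muscle, 4683 of 50647 in ERRα3SA muscle, 2027 of 21813 in WT liver and 1785 of 29040 in ERRα3SA liver. All were annotated as intronic or intergenic.

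The lists came from male C57BL/6N mice of 2 to 3 months. ERRα3SA mice carry ERRα whose amino terminal phosphoserines were mutated, so that this domain cannot be phosphorylated at those sites, and WT mice carry the unmutated receptor. Both genotypes share strain, sex and age. Skeletal muscle (gastrocnemius and soleus) was pooled from 5 mice per genotype and liver from 2, and the labels describe 3 pooled immunoprecipitations for each library with an antibody against ERRα, a number that differs from the one in the study's methods. Each genotype and tissue therefore gave 1 library and 1 list, without a replicate check, and no p-value between lists is given. Intervals below are 95% exact (Clopper-Pearson) intervals for shares and follow from the Wilson interval for ratios of peak numbers. They cover counting error only. The lists carry no read numbers, so depth was unknown, and no expression values. The tissue labels could be set only against peaks near marker genes: 8 and 9 of 10 skeletal muscle markers had a peak within 20 kb in WT and ERRα3SA muscle and 5 and 6 in the liver lists, and 2 and 5 of 10 liver markers had one in the muscle lists and 5 and 6 in the liver lists. Of the 19188 genes named in any list, 45.1%, 63.5%, 39.2% and 49.2% had a peak within 20 kb in WT muscle, ERRα3SA muscle, WT liver and ERRα3SA liver.

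LINEs are retrotransposons, mobile elements that copy themselves through an RNA intermediate. L1 is the family still active in the mouse: L1Md subfamilies are the youngest, L1_Mus, L1VL and Lx elements are older copies of the mouse and rodent lineage, and L1M elements are shared with other mammals. L2 and the CR1 elements (L3 and its relatives) stopped moving long ago and survive as short, diverged fragments. ERRα is an orphan nuclear receptor that drives genes of mitochondrial energy metabolism and binds the ERR response element (ERRE), TCAAGGTCA, in which the AGGTCA half-site is preceded by a short 5′ extension.

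The sequences below show the ERRE, in capitals, in the highest-scoring LINE peaks that held it in the central 300 bp, chosen by list and family; 1600014C10Rik had a different site in the window of its ERRα3SA muscle peak and of its ERRα3SA liver peak. They are given 5′ to 3′ on the ERRE strand with 25 bases to either side, from the RefSeq copy of GRCm38 (mm10), 1-based. Lower case here marks only the flanking bases, and the subfamily is the annotation of the peak. The Cryzl1 site lay in sequence masked as a repeat in the reference. The other sites shown did not, and at Mfi2 only the last site of the array as printed was checked. The ERREs of the Vps8 and Mettl26 peaks, with scores of 36 and 35, were chosen too and are not shown.
Tbc1d1, L1MB2, chr5:64297373-64297431, plus strand: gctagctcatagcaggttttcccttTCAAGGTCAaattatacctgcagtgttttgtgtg
Edn3, L1MD3, chr2:174735606-174735664, minus strand: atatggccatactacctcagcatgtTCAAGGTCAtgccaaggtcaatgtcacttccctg
1600014C10Rik, L1MD3, chr7:38192955-38193013, minus strand: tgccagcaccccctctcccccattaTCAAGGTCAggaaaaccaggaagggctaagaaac
1600014C10Rik, L1MD3, chr7:38193134-38193192, plus strand: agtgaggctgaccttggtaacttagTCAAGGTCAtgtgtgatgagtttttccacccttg
Ube4bos3, L2, chr4:149323440-149323498, minus strand: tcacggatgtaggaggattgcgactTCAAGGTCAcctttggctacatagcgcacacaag
Ptgs1, L2b, chr2:36212431-36212489, minus strand: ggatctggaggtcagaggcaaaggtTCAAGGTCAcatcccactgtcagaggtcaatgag
Mavs, L2, chr2:131236008-131236066, minus strand: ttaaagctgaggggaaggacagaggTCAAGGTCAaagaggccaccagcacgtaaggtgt
Cryzl1, L3, chr16:91724859-91724917, minus strand: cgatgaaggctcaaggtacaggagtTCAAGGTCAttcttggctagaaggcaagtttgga
The peak near Mfi2, annotated to an L1_Mus3 element, held an array instead of a single site. Its 4 ERREs lay on the minus strand within 33 bp and partly overlapped, so that their bases run together in capitals.
Mfi2, L1_Mus3, chr16:31902038-31902090, minus strand: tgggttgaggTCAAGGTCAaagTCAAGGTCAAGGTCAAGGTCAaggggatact

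L1 dominated the members in every list. It held 2231 LINE peaks in WT muscle, 4459 in ERRα3SA muscle, 1921 in WT liver and 1636 in ERRα3SA liver, or 94.8%, 95.2%, 94.8% and 91.7% of the members. L2 followed with 107, 197, 99 and 136 peaks in the same order of lists. CR1 held 14, 23, 5 and 12. RTE-X contributed 1 to 3 peaks per list, and RTE-BovB and Dong-R4 were each seen in 1 peak of 1 list. The members fell into 118 subfamilies, of which 29 had at least 100 peaks over the 4 lists and 18 had 1. L1Md_F2 was the most frequent, with 382, 666, 233 and 219 peaks.

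The tissues differed in which L1 elements were represented. L1Md made up 33.2% (31.3 to 35.2) of the LINE peaks of WT muscle and 32.4% (31.0 to 33.7) of those of ERRα3SA muscle, against 19% (17.4 to 20.8) in WT liver and 18.2% in ERRα3SA liver. The muscle and liver intervals did not overlap in either genotype. The difference was uneven among L1Md subfamilies, and was clear in L1Md_T and L1Md_A, to which active mouse L1s belong, and in L1Md_F. L1Md_T took 4.93% of LINE peaks in WT muscle and 5.96% in ERRα3SA muscle but 1.73% and 1.4% in the liver lists. L1Md_A took 5.06% and 4.76% against 1.78% and 1.29%. L1Md_F took 3.53% and 4.27% against 1.53% and 1.06%. L1Md_F2 took 16.2% (14.8 to 17.8) in WT muscle against 11.5% (10.1 to 13.0) in WT liver, but in ERRα3SA its intervals overlapped, at 14.2% (13.2 to 15.3) and 12.3% (10.8 to 13.9). For L1Md_F3 they overlapped in both genotypes, with 3.06% and 2.65% in muscle and 2.52% and 2.07% in liver. L1_Mus was represented more in WT liver, at 24.5% (22.7 to 26.5), than in WT muscle, at 17.4%, while the ERRα3SA shares were 19.4% (17.6 to 21.3) and 17.0% (15.9 to 18.1). Lx was represented more in liver, at 41.3% and 42.1%, than in muscle, at 35.5% and 36.9%. Tissue and library cannot be told apart with 1 library per group.

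**Figure D1:**
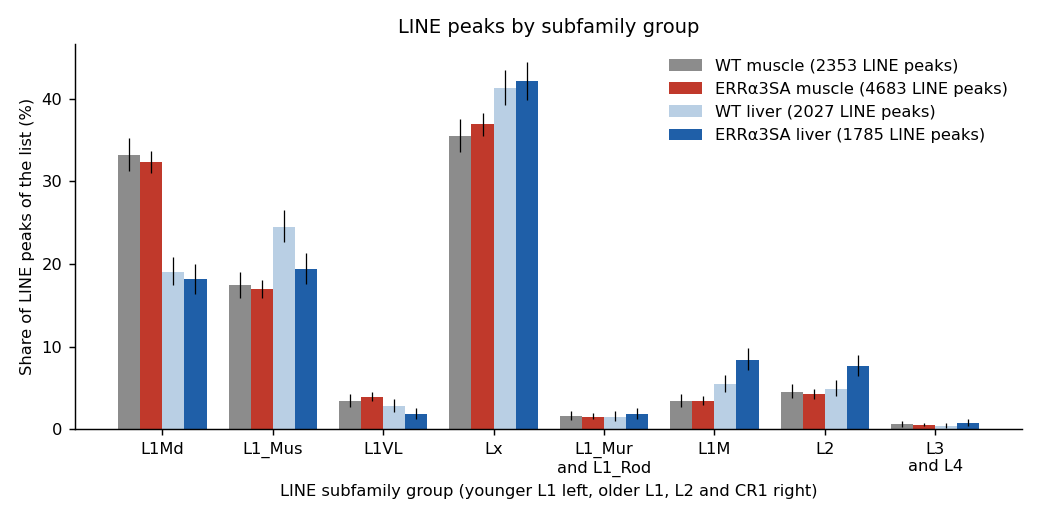
Share of each list's LINE peaks (y axis, %) that fell into each LINE subfamily group (x axis), for the 4 lists; bars are shares and black lines 95% exact intervals. L1Md bars stand at 33.2% and 32.4% in muscle and at 19% and 18.2% in liver, and the L1M bar of ERRα3SA liver, at 8.40%, is the highest of its group.

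The number of LINE peaks differed between genotypes in opposite directions in the 2 tissues. In muscle, ERRα3SA had 1.99 times (1.89 to 2.09) as many LINE peaks as WT, the same factor as over all peaks, 1.99 (1.96 to 2.02). The LINE share was 9.25% in both muscle lists. This factor followed the list lengths: with the ERRα3SA list cut to the length of the WT list the muscle ratio was 0.966 (0.911 to 1.02). In liver, ERRα3SA had 0.881 times (0.826 to 0.938) as many LINE peaks as WT, although the whole list was 1.33 times (1.31 to 1.35) as long. The LINE share was 9.29% (8.91 to 9.69) in WT liver and 6.15% (5.87 to 6.43) in ERRα3SA liver. Peaks in the other repeat classes were more numerous in ERRα3SA liver, with ratios of 1.33 for SINEs and 1.14 for LTR elements, and the ratio was 1.4 for introns and 1.37 for intergenic sequence outside repeats. The side of 1 on which the liver ratio lay depended on the weakest peaks. Among peaks with a score of at least 50 it was 1.36 (1.18 to 1.57), with 319 WT and 434 ERRα3SA members. At scores of at least 100 it was 1.5, with 78 and 117. The whole liver lists held 8203 WT and 12999 ERRα3SA peaks at scores of at least 50, and 3770 and 5971 at 100. The LINE share was thus still lower in ERRα3SA liver at scores of at least 50, at 3.34% (3.04 to 3.66) against 3.89% (3.48 to 4.33). At 100 it was 1.96% against 2.07%.

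Within liver the ratio was below 1 for young elements and above 1 for ancient ones. It was 0.839 (0.724 to 0.973) for L1Md, 0.696 (0.607 to 0.798) for L1_Mus, 0.561 (0.365 to 0.863) for L1VL and 0.896 (0.812 to 0.989) for Lx. For L1_Mur and L1_Rod elements, of the older rodent lineage, it was 1.03 (0.633 to 1.68). The ancient elements were more numerous in ERRα3SA liver: 150 against 111 peaks for L1M, a ratio of 1.35 (1.06 to 1.73), and 136 against 99 for L2, a ratio of 1.37 (1.06 to 1.78). Both were close to the 1.33 of the whole list. The most frequent subfamilies, down to L1_Mus4 and L1Md_F in number, all had liver ratios below 1. The interval excluded 1 only for L1_Mus3, at 0.60 (0.474 to 0.759), L1_Mus1, at 0.620 (0.482 to 0.797), and the subfamily Lx, at 0.750 (0.596 to 0.944). It included 1 for the rest, among them L1Md_F2, at 0.940 (0.782 to 1.13), Lx5, at 0.899 (0.639 to 1.26), and L1Md_T, at 0.714 (0.430 to 1.19). The Lx8 subfamily went the other way, with 52 WT and 92 ERRα3SA peaks. Among peaks with a score of at least 50 the liver ratio was 0.889 (0.604 to 1.31) for L1Md and 0.765 (0.534 to 1.10) for L1_Mus, both intervals including 1, whereas for Lx it was on the other side of 1, at 1.58 (1.24 to 2.02). For L1M it was 2.32 (1.58 to 3.41) and for L2 1.72 (1.15 to 2.59) at these scores. The whole liver lists at these scores were also longer in ERRα3SA, with 12999 peaks against 8203. A ratio above 1 was therefore not particular to Lx, L1M and L2.

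In muscle the ratios of the groups with more than 100 members in both lists combined lay between 1.84 for L2 and 2.27 for L1VL, and each of their intervals included the 1.99 of the whole list. By number of peaks, no group of LINEs stood apart from the whole list beyond counting error in muscle. With a score of at least 50, L1M had 27 peaks in ERRα3SA against 6 in WT muscle, 4.5 times (1.91 to 10.6) as many, and L2 had 31 against 7, 4.43 times (1.99 to 9.84) as many. The corresponding L1Md counts were 175 and 86, a ratio of 2.03 (1.57 to 2.63), and this interval overlapped those of L1M and L2. The whole muscle lists at these scores were also longer in ERRα3SA, with 7850 peaks against 4056. A ratio above 1 at these scores was therefore not particular to L1M and L2, whose ratios rest on 6 and 7 WT peaks.

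**Figure D2:**
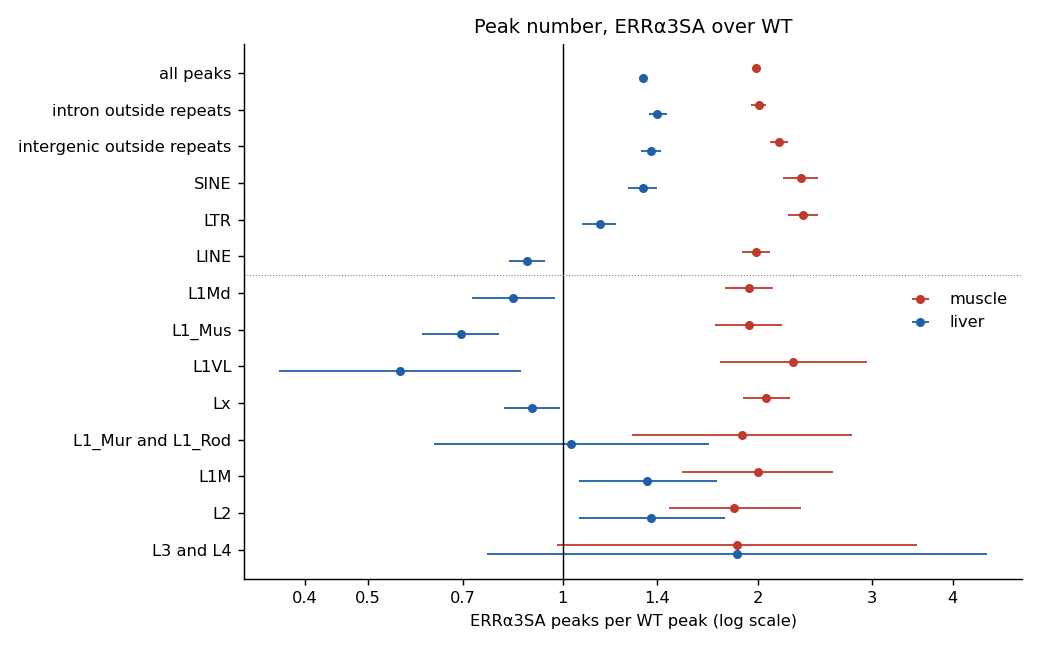
Peaks in the ERRα3SA list per peak in the WT list (x axis, log scale) for peak classes and, under the dotted line, LINE groups; points are ratios, lines their 95% intervals, red is muscle and blue liver. In liver LINEs lie at 0.881, left of 1, while all peaks lie at 1.33, and L1M and L2 lie at 1.35 and 1.37; the muscle points lie between 1.84 and 2.35.

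Few LINE peaks had high scores. The score is a whole number of at least 30 in every list, and was used here to rank peaks within a list. The median LINE score was 36 in both muscle lists, equal to that of all peaks there. It was 38 in WT liver and 37 in ERRα3SA liver, against 44 and 49 for all peaks. A score of at least 100 was reached by 20 LINE peaks in WT muscle (0.850%), 46 in ERRα3SA muscle (0.982%), 78 in WT liver (3.85%) and 117 in ERRα3SA liver (6.55%), whereas 4.66%, 5.14%, 17.3% and 20.6% of all peaks reached it. The LINE share therefore differed along the score: in WT liver it was 12.9% at scores of 30 to 39 and 2.07% at 100 and over, and in ERRα3SA liver 8.93% and 1.96%. The make-up of LINE peaks differed along the score as well. L1M, L2, L3 and L4 together gave 9.73% of the ERRα3SA liver members at scores of 30 to 39 and 61.5% at 100 and over, while L1Md and L1_Mus together gave 43.9% and 8.55%. LINE intervals were narrower than the average peak, with medians of 354, 345, 321 and 311 bp against 435, 420, 411 and 413 bp for the 4 whole lists.

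The ERRE was rare in LINE peaks of muscle and more frequent in liver. The sequence TCAAGGTCA stood on either strand of the central 300 bp in 16 LINE peaks of WT muscle (0.680%, 0.389 to 1.10) and in 25 of ERRα3SA muscle (0.534%, 0.346 to 0.787). The share was 0.531% and 0.481% in windows placed 5 kb upstream and downstream, values inside the intervals of the muscle members. In liver it stood in 54 WT members (2.66%, 2.01 to 3.46) and 76 ERRα3SA members (4.26%, 3.37 to 5.30), beside 0.617% and 0.785% in the windows 5 kb away. Over all peaks the shares were 3.92% in WT muscle, 4.28% in ERRα3SA muscle, 14.6% in WT liver and 15.2% in ERRα3SA liver. The LINE shares were below these in every list, and below those of SINE peaks, which were 16.6%, 18.1%, 43.3% and 42.7%. The reversed letters ACTGGAACT, searched as a control, stood in 0.382%, 0.256%, 0.197% and 0.168% of the LINE peaks.

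Of the ancient elements, L1M and L2 held the ERRE more often than the young L1Md. Among L1M peaks the ERRE stood in 7 of 81 in WT muscle (8.64%, 3.55 to 17.0), 9 of 162 in ERRα3SA muscle (5.56%, 2.57 to 10.3), 19 of 111 in WT liver (17.1%, 10.6 to 25.4) and 35 of 150 in ERRα3SA liver (23.3%, 16.8 to 30.9). Each share was above that of the whole list, and in ERRα3SA liver its interval did not include the share of the whole list, whereas in the other lists it did. L2 peaks held it in 2, 8, 11 and 13 cases, or 1.87%, 4.06%, 11.1% and 9.56%. Each L2 share was below that of the whole list (3.92%, 4.28%, 14.6% and 15.2%), which its interval included. L3 and L4 peaks were few, and held it in 1 of 14, 0 of 26, 1 of 7 and 0 of 13, with exact upper limits of 13.2% and 24.7% for the ERRα3SA lists. The young L1Md held it in 0 of 782, 0 of 1516, 2 of 386 and 3 of 324 peaks, and the exact upper limits for the muscle lists were 0.471% and 0.243%. Lx held it in 1, 6, 17 and 20 peaks, which in liver was 2.03% and 2.66%. The ERRE was lower case in the reference, and so lay in sequence masked there as a repeat, in 4 of the 16, 5 of the 25, 15 of the 54 and 27 of the 76 members that held it. The others lay in sequence that was not masked.

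**Figure D3:**
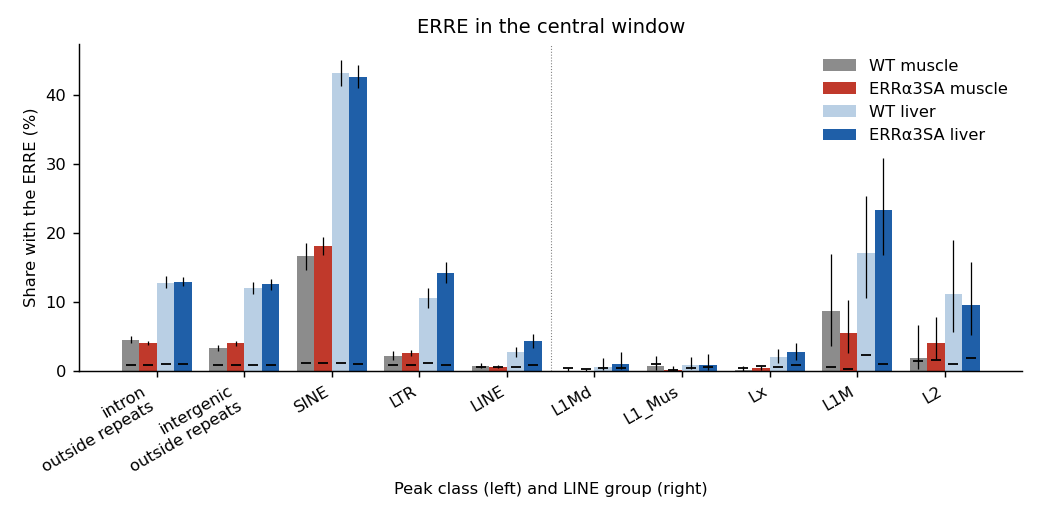
Share of peaks with TCAAGGTCA in the central 300 bp (y axis, %) for peak classes (left of the dotted line) and LINE groups (right), in the 4 lists; bars are shares, black lines 95% exact intervals and short black dashes the share in windows 5 kb away. LINE bars reach 4.26% at most, L1Md bars 0.926%, and L1M bars 17.1% and 23.3% in the liver lists.

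In liver the ERRE was more frequent at higher scores. In ERRα3SA liver the ERRE share of LINE peaks was 0.757% at scores of 30 to 39, 3.05% at 40 to 49, 7.89% at 50 to 99 and 26.5% (18.8 to 35.5) at 100 and over. The last value was close to the 25.7% of all other peaks in that score range, whereas at 30 to 39 the other peaks held it in 7.69%. In WT liver the LINE shares were 0.910%, 2.00%, 7.05% and 20.5% (12.2 to 31.2), beside 27.4% of the other peaks at 100 and over. In ERRα3SA muscle 6 of the 46 members at 100 and over held it, 13.0% (4.94 to 26.3), beside 18.4% of the others. In WT muscle 1 of 20 did. The median score of the members with an ERRE was 83 in ERRα3SA liver and 60.5 in WT liver, against 37 and 38 for those without.

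**Figure D4:**
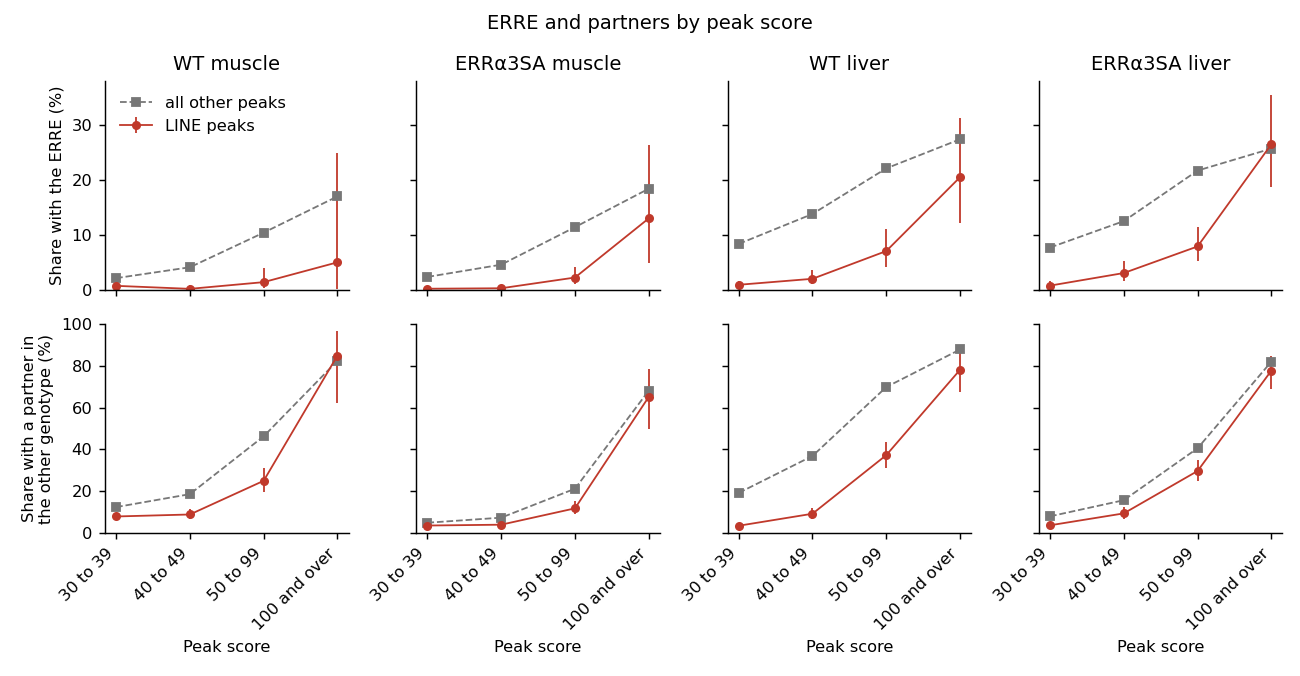
Share of peaks with the ERRE (upper row, %) and with a partner in the other genotype of the same tissue (lower row, %) against peak score (x axis), for LINE peaks (red, with 95% exact intervals) and all other peaks of the list (grey). Both shares are highest at scores of 100 and over in each list; in ERRα3SA liver LINE peaks hold the ERRE in 0.757% at 30 to 39 and in 26.5% at 100 and over, beside 7.69% and 25.7% of the other peaks.

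Other motifs were counted in the same windows on either strand. CAGCTG, an E-box bound by myogenic and other basic helix-loop-helix factors, stood in 19%, 18.6%, 18.1% and 20.7% of the LINE peaks of WT muscle, ERRα3SA muscle, WT liver and ERRα3SA liver, beside 8.82%, 8.34%, 8.31% and 9.48% of windows 5 kb away. Over all peaks the E-box stood in 22.2%, 22.5%, 19.1% and 18.9%. The members' windows were also richer in GC than the windows 5 kb away, with means of 53.3%, 53.4% and 50.4% against 40.8%, 40.7% and 40.2% in WT muscle, ERRα3SA muscle and WT liver, and the part of GC content in the motif shares was not tested. The half-site AGGTCA, which the ERRE contains, stood in 13.8% and 15.1% of the muscle members, beside 14.2% and 13.8% nearby, and in 19.6% and 26.3% of the liver members, beside 14.1% and 16.1%. TGANTCA (AP-1), with 4.21% to 5.82%, and the forkhead letters TGTTTAC, with 1.15% to 1.96%, were less frequent in the members than in the windows 5 kb away, which held 7.71% to 9.0% and 3.95% to 5.02%. TTGCNNAA (C/EBP) was at 9.91% to 14.3% in the members and at 14.1% to 15.1% nearby. CAAAGTCCA (HNF4) was in 3, 4, 2 and 8 members of WT muscle, ERRα3SA muscle, WT liver and ERRα3SA liver, or 0.127%, 0.0854%, 0.0987% and 0.448%, beside 0.319%, 0.278%, 0.222% and 0.308% of windows 5 kb away and 0.354%, 0.353%, 0.555% and 0.637% of all peaks. TAAAAATAG (MEF2) was in 1 to 4 members of each list, or 0.0425% to 0.224%, beside 0.574% to 1.04% of windows 5 kb away and 0.223% to 0.312% of all peaks.

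Few LINE peaks recurred in the other genotype. With centres within 300 bp counted as partners, 244 of the 2353 WT muscle members had a partner of any annotation in ERRα3SA muscle (10.4%, 9.17 to 11.7), and 237 of the 4683 ERRα3SA muscle members had one in WT muscle (5.06%, 4.45 to 5.73). In liver 239 of 2027 WT members (11.8%, 10.4 to 13.3) and 259 of 1785 ERRα3SA members (14.5%, 12.9 to 16.2) had a partner. All peaks of the 4 lists had one in 20.2%, 10.1%, 42.9% and 32.2%, above the LINE share in each list. In liver 40.5% (31.3 to 50.3) of WT and 36.7% (29.0 to 44.9) of ERRα3SA L1M peaks had partners. Both intervals included the share of all peaks of the list. L2 had 33.3% and 25% in liver. L1_Mus, with 5.84% and 8.38%, and L1Md, with 8.55% and 10.2%, were below the shares of all peaks. Partners were more frequent among LINE peaks with a higher score: in ERRα3SA liver 3.68% at scores of 30 to 39 and 77.8% (69.2 to 84.9) at 100 and over, beside 7.97% and 82.1% of the other peaks. Liver members with an ERRE had a partner in 59.3% of WT and 51.3% of ERRα3SA cases, against 10.5% and 12.9% of those without one.

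Most LINE peaks were seen in 1 list alone. This held for 2034 WT muscle members (86.4%), 4225 ERRα3SA muscle members (90.2%), 1625 WT liver members (80.2%) and 1407 ERRα3SA liver members (78.8%), whereas 71.8%, 79.8%, 45.8% and 55.7% of the peaks outside LINEs were seen in 1 list. Only 33 to 36 members per list, or 0.705% to 1.96%, had partners in all 3 others, beside 3.56% to 8.28% of the peaks outside LINEs. Partners in the other tissue of the same genotype were found for 4.55% of WT muscle, 3.65% of ERRα3SA muscle, 5.08% of WT liver and 10.1% of ERRα3SA liver members. Over all peaks these shares were 11.7%, 11.5%, 13.6% and 20.1%, above the LINE share in each list.

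The members present in all 4 lists formed 50 loci. At 25 of them all 4 peaks were annotated as LINE, and 17 of these 25 lay in sequence of which some 100-base words recur elsewhere in the genome. At the other 25 loci the peak centre fell in a LINE in 1 to 3 lists and beside it in the rest, and 3 of them held recurring words. By element, 13 loci were Lx, 11 L1M, 8 L1Md, 7 L2, 6 L1_Mus, 3 L3 or L4 and 2 L1VL, and 14 held an ERRE in at least 1 list.

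The 10 loci with the best rank in their weakest list were led by the Mfi2 locus with its ERRE array. Mfi2 encodes melanotransferrin, an iron-binding protein of the cell surface, and the peak lay between genes, 23115 bp from its TSS in WT liver. It scored 350 in WT muscle, 878 in ERRα3SA muscle, 1820 in WT liver and 2648 in ERRα3SA liver, with ranks of 238, 130, 41 and 27. The peak in an intron of Mipep, a mitochondrial protease that trims imported proteins, scored 127, 320, 488 and 719 at an L1MCa fragment, and was annotated as LINE in 1 list. Ergic1, of the ER-Golgi intermediate compartment, had an intronic peak at an L1MD3 with scores of 118, 529, 1494 and 1811, also annotated as LINE in 1 list. The intergenic L1MD3 peak near Edn3, which encodes the vasoactive peptide endothelin 3, scored 110, 181, 1128 and 2516 and held the ERRE shown above. The Mfi2, Ergic1 and Edn3 peaks stood higher, as a share of list length, in both liver lists than in both muscle lists, whereas the Mipep peak did so only against WT muscle.

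The L1MC3 peak near Gpx2, a glutathione peroxidase gene, scored 81, 82, 390 and 429, and the L2b peak in an intron of Greb1, known as an estrogen-responsive gene, 73, 170, 712 and 1313. The L1MD3 peak in an intron of 1600014C10Rik was annotated as LINE in all 4 lists, held an ERRE and scored 59, 149, 545 and 910. Near Ermp1, an ER metallopeptidase gene, an Lx8 peak scored 115, 326, 240 and 351. The Lx5 peak in an intron of Hey2, a transcriptional repressor of the Notch pathway, scored 57, 57, 401 and 657, and Lx5c near 5031425E22Rik 124, 57, 627 and 782. An ERRE stood in the central window in at least 1 list at Mfi2, Edn3, Ermp1, Greb1 and 1600014C10Rik. It stood there in no list at Mipep, Ergic1, Gpx2, Hey2 and 5031425E22Rik. All 10 loci lay in sequence without recurring 100-base words. Peaks were annotated as LINE in all 4 lists at 1600014C10Rik and Hey2 and in 3 lists at 5031425E22Rik. They were so annotated in 2 lists at Mfi2 and Edn3, and in 1 list at the other loci.

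In WT muscle the highest-scoring member was an L2c peak in an intron of Nxn, a thioredoxin-like redox protein gene, with a score of 326 and a partner of 294 in ERRα3SA muscle. It was followed by L1_Mus4 in an intron of Mesdc2 (302), L1Md_T near Tecrl (296) and near Tle1 (235), and L1VL1 near Gm21119 (206). In the central 300 bp of the last 3, only 16.4%, 28.9% and 2.99% of the 100-base words were unique in the genome. The Tecrl peak appeared in all 4 lists, with scores of 296, 266, 85 and 166.

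In ERRα3SA muscle the leading members were ancient elements in unique sequence. L1MB7 in an intron of Rnft1 scored 1251, and other leading members were L2c in Plb1 (370), L2a near Gse1 (357) and L2 in Chd7 (345), a chromatin remodeler gene. The Rnft1 locus scored 951 in WT muscle, 96 in WT liver and 86 in ERRα3SA liver, where the peak centres lay outside the repeat. None of these 4 held an ERRE in the central window. The best L2 peak with an ERRE in this list lay near Ube4bos3, with 284 beside 92, 89 and 151 in WT muscle, WT liver and ERRα3SA liver.

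In liver the leading members were also mostly ancient. WT liver was led by L1MB2 in an intron of Tbc1d1 (2332), which encodes a Rab GTPase-activating protein of glucose transporter trafficking, then by Mfi2 (1820), L1MB8 in Nav2 (1238), L1MD3 near Edn3 (1128) and L2 in Tec (761). The Tbc1d1 locus scored 919 in WT muscle, 1809 in ERRα3SA muscle and 3320 in ERRα3SA liver, with centres outside LINEs. ERRα3SA liver was led by Mfi2 (2648), Ergic1 (1811), Greb1 (1313), Lx8 near Atxn1 (1024) and 1600014C10Rik (910). L2 peaks with an ERRE were found in an intron of Mavs, an adaptor of antiviral signalling, with 288 in WT liver, and near Ptgs1, which encodes cyclooxygenase 1, with 361 in ERRα3SA liver. Outside L1 and L2, an L3 peak in Cryzl1 (44, WT liver) and an X5B_LINE peak near Mettl26 (35, WT muscle) held the site, both with scores near the lower limit, and the best L2 peak with an ERRE in WT muscle, L2a near Vps8, had 36.

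LINE peaks lay far from genes. Their median distance to the nearest TSS ranged from 61887 bp in ERRα3SA liver to 90683 bp in ERRα3SA muscle, with 81009 bp for WT muscle and 76777 bp for WT liver, whereas the medians of the whole lists were between 15820 and 23100 bp. Within 20 kb of a TSS lay 21.7%, 19.7%, 22.6% and 25.6% of the members, compared with 51.1%, 46.5%, 51.4% and 55.5% of all peaks. Among the old elements, L1M and L2 were nearer to genes than the young L1Md: they had 38.3% to 47.8% of their peaks within 20 kb, and L1Md 14.3% to 17.0%. The few L3 and L4 peaks, 14, 26, 7 and 13 per list, had 21.4%, 38.5%, 28.6% and 0% there. The share in introns was 27.1%, 25.9%, 30.9% and 34.2%.

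The genes of the pathway lists with a LINE peak within 20 kb were few, as were such genes in general. Over the 19188 genes named in any list, 2.58%, 4.57%, 2.20% and 2.29% had a LINE peak within 20 kb. Among 40 oxidative phosphorylation genes there were 2 in WT muscle (Cox8b and Ndufb3), 1 in ERRα3SA muscle (Cyc1), 0 in WT liver and 1 in ERRα3SA liver (Uqcrc1), whereas 33 to 38 of the 40 had a peak of some kind in each list, beside the 39.2% to 63.5% of all genes given above. The tricarboxylic acid cycle and pyruvate entry list of 20 genes had Mpc1, of the mitochondrial pyruvate carrier, in ERRα3SA muscle and Pdk2, a kinase that inhibits pyruvate dehydrogenase, in ERRα3SA liver. Of 23 fatty acid genes, Fabp3 had one in WT muscle and Cpt2 in ERRα3SA muscle. Of 15 hepatic transcription factor genes, Rxra had one in WT muscle, Nr1i2 and Prox1 in ERRα3SA muscle, and Cebpa and Onecut1 in ERRα3SA liver. The 11 genes of the ERR family and its coregulators and the 18 sarcomere and fiber type genes had none, nor had the 10 muscle markers, the 10 liver markers and the 5 fat and blood markers. The strongest of these peaks was the L2b peak 4167 bp from the TSS of Cebpa, with a score of 135, and none of them held an ERRE or had a partner within 300 bp in another list. The Cebpa peak nevertheless contained a WT liver peak whose centre lay 523 bp away. The Pdk2 peak overlapped peaks of WT muscle, ERRα3SA muscle and WT liver with centres 465 to 586 bp away.

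Since only uniquely aligned reads were kept by the authors, the uniqueness of the sequence under each member was computed. It describes the reference and not the reads. Of the 100-base words in the central 300 bp, 95.4% to 95.9% were unique in the genome in the 4 lists on average, and in 82.7% to 83.9% of the members every word was. L1Md had lower means, 85.4% to 90.7%, and 59.7%, 62.3%, 51.8% and 46.0% of its peaks were wholly unique. Of 50-base words in L1Md, 60.7%, 63.3%, 54.3% and 51.7% were unique. L2 peaks were unique at 99.6% to 100%. Among peaks whose central window was wholly unique the ratio of ERRα3SA to WT LINE peaks was 2.02 (1.91 to 2.13) in muscle and 0.881 (0.822 to 0.945) in liver, and the liver ratio of L1Md was 0.745 (0.603 to 0.921) and that of L1_Mus 0.702 (0.603 to 0.817).

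The lower-case masking of the reference sequence gave a second view of the repeats. It covered 71.7%, 71.0%, 69.4% and 62.8% of the members' central windows on average. In L1Md it covered 90.4% to 93.4%, in Lx 58.7% to 65.1%, in L1M 12.9% to 16.3% and in L2 7.44% to 9.96%. The masking used in the reference and the repeat annotation of the authors therefore differed for the ancient elements, and how the masking was made is not given in the sources used here.

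Some young L1 peaks shared recurring sequence of the element. To describe this, the most frequent 20-base word of the L1Md, L1_Mus and Lx peaks was sought in each tissue. The words were chosen from these peaks, so their presence there was fixed in advance. Their shares describe where some of the peaks lie, and most peaks of each group lacked the word. The words are shown because they mark a place, in capitals throughout.
L1Md word of muscle: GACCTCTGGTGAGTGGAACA
L1Md word of liver: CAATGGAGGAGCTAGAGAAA
L1_Mus word of muscle: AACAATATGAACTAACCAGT
Lx word of both tissues: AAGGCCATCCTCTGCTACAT
The L1Md word of muscle stood in 15.9% (13.4 to 18.6) of WT and 16.4% (14.5 to 18.3) of ERRα3SA muscle L1Md peaks, and in 8.81% (6.18 to 12.1) and 3.70% (1.93 to 6.38) of those of WT and ERRα3SA liver. The L1Md word of liver stood in 26.2% (21.8 to 30.9) and 30.9% (25.9 to 36.2) of the WT and ERRα3SA liver L1Md peaks, and in 13.0% (10.8 to 15.6) and 9.50% (8.07 to 11.1) of those of muscle. The L1_Mus word stood in 16.8% to 23.7% of L1_Mus peaks and the Lx word in 3.42% to 5.14% of Lx peaks. In windows 5 kb away each word stood in 1.09% or less. Those windows were not chosen to lie in LINEs, so they are no baseline for position within an element.

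The L1Md words lay far apart in the element. The muscle word occurs 7220 times on the chromosomes of GRCm38 and the liver word 51383 times. In 5051 of its 7220 copies (70.0%) the muscle word was followed on the same strand, within 8000 bp, by a copy of the liver word, at a median distance of 5780 bp, close to the length of a whole L1. In 25.6% of its copies the muscle word was followed by another copy of itself, at a median of 201 bp, the tandem arrangement known from the promoter monomers at the 5′ end of mouse L1. The L1_Mus word lay a median of 63 bp downstream of the liver word in the 25.8% of liver word copies that it followed within 8000 bp. In muscle, LINE peaks with the muscle word had a mean GC content of 57.8% in WT and 58.2% in ERRα3SA, and those with the liver word 49.9% and 49.8%. Mean uniqueness of 100-base words was 88.4% for ERRα3SA muscle peaks with the muscle word and 81.4% for ERRα3SA liver peaks with the liver word.

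**Figure D5:**
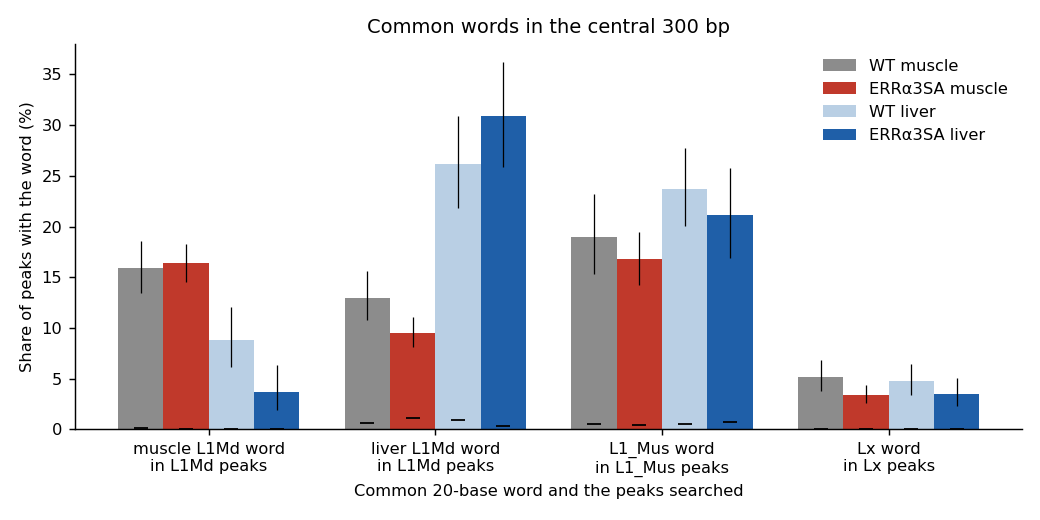
Share of peaks (y axis, %) whose central 300 bp hold a common 20-base word of their LINE group (x axis), in the 4 lists; bars are shares, black lines 95% exact intervals and short black dashes the share in windows 5 kb away. The muscle L1Md word is at 15.9% and 16.4% in muscle and 8.81% and 3.70% in liver, and the liver L1Md word at 13.0% and 9.50% in muscle and 26.2% and 30.9% in liver.

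The megabase with most members over the 4 lists, chr5:15000001-16000000, held 50 of them among 119 peaks, with Speer4cos among the annotated genes, and a mean uniqueness of 71.8%. It was followed by chr4:147000001-148000000 with 49, around the zinc finger genes Zfp982, Zfp984 and Zfp985, and by chr13:12000001-13000000, around the prolactin family genes Prl2c2, Prl2c3 and Prl2c4, and chr8:20000001-21000000, with 35 each. All 4 lists contributed to each of these regions, with 8, 15, 14 and 13 members to the first. On the X chromosome, which is 6.28% of the chromosome length and known to be rich in L1, lay 6, 10, 3 and 3 members, or 0.148% to 0.255% of each list's LINE peaks. All peaks were as scarce there, at 0.136% to 0.289%, and the reason was not tested.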

How the data were processed

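Per the labels and the methods, the authors sequenced paired-end reads, used Trimmomatic 0.36 for trimming and BWA-MEM 0.7.12 for alignment to mm10, kept unique alignments, removed duplicates with Picard 2.0.1, called peaks with MACS2 2.1.1.20160309 against input DNA and annotated them with HOMER 4.9.1. The deposited score is a whole number per peak, taken from its lowest value of 30 to be a scaled −log10 of the FDR. The CpG and GC contents were deposited as a fraction of the interval and are printed as percentages. The distance to the TSS is the authors' annotation. The 4 input samples were not analysed here.

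Members and gene lists were chosen with earlier results of these data known. Subfamilies were grouped by name. Alternatives were score minimums of 50 and 100, lists of equal length, other partner distances, a relaxed motif or the whole interval, and, chosen after seeing the data, wholly unique windows. Sequence was read from GRCm38, whose recomputed GC content equalled the listed one for all but 1, 2, 2 and 3 peaks of the WT muscle, ERRα3SA muscle, WT liver and ERRα3SA liver lists. Motifs were searched on either strand of the 300 bp around the interval centre, and partners had centres within 300 bp. Uniqueness is the share of 100-base or 50-base words found once in the primary assembly. The genes named are those of the 5 highest-scoring LINE peaks per list, of the 10 loci in all 4 lists with the best worst rank, of the highest-scoring peak with an ERRE per list in L1, L2 and the other families, and of the listed pathways within 20 kb. 1 peak that this rule names is not reported here. Genes of the densest megabases and single subfamilies were added after their values were seen, as were the common words. Overlap, motif search and word counting were tested on simulated data. The tools were samtools 1.23.1, pysam 0.24.0 and numba 0.67.0, and scipy 1.17.1, pandas 2.3.3, numpy 2.4.6 and matplotlib 3.10.9 under Python 3.11.15.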

Additional observations from a re-analysis of the deposited data

Results flagged for a closer look

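The number of LINE peaks in ERRα3SA per WT peak was above 1 in muscle and below 1 in liver, and the difference between the tissues was not tested, since each group has 1 library. It was 1.99 and 0.881 for all LINE peaks, beside 1.99 and 1.33 for the whole lists. It was 1.94 and 0.839 for L1Md, 1.94 and 0.696 for L1_Mus, 2.27 and 0.561 for L1VL, and 2.06 and 0.896 for Lx. These directions depended on the weakest peaks and on list length: for all LINE peaks the liver ratio was 1.36 at scores of at least 50 and 1.5 at scores of at least 100, the liver ratio of Lx was 1.58 at scores of at least 50, and the muscle ratio was 0.966 with lists of equal length. The share of LINE peaks with an ERRE was 0.785 times the WT share in ERRα3SA muscle, from 25 and 16 peaks with overlapping intervals, and 1.60 times the WT share in ERRα3SA liver, which was not tested either. At scores of at least 50 the muscle share was higher in ERRα3SA, at 3.23%, than in WT, at 1.69%, the same direction as in liver, again with overlapping intervals (1.86 to 5.2 and 0.464 to 4.28).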

How the results depend on the processing

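Counting only scores of at least 50 lowered the LINE share to 5.82%, 6.31%, 3.89% and 3.34% in WT muscle, ERRα3SA muscle, WT liver and ERRα3SA liver, and scores of at least 100 to 1.69%, 1.77%, 2.07% and 1.96%. In this order, the ERRE share became 1.36%, 0.982%, 4.44% and 6.39% with TNAAGGTCA, 1.10%, 0.897%, 4.0% and 6.83% over the whole interval, and 1.69%, 3.23%, 10.3% and 12.9% at scores of at least 50. The muscle ratio of LINE peak numbers was 2.1 and 2.30 at scores of at least 50 and 100, but 0.966 (0.911 to 1.02), on the other side of 1, with the ERRα3SA list cut to the length of the WT list. The liver ratio was 0.568 with lists of equal length and on the other side of 1 at scores of at least 50 (1.36) and 100 (1.5). The share of ERRα3SA LINE peaks with a WT partner was 3.46% in muscle and 9.52% in liver with centres within 100 bp, 16.8% in liver within 1000 bp, and 16.8% and 42.6% at scores of at least 50. Among peaks in wholly unique windows, an alternative chosen after seeing the data, the LINE share was 8.11%, 8.21%, 8.21% and 5.34% and the muscle partner share 4.25%. The other alternatives stayed within the intervals of the main values: 1 shared base in both tissues, 1000 bp in muscle, and unique windows for both ratios, the 4 ERRE shares and the liver partner share. The cause of these changes was not tested. No paired analysis was possible because each group has 1 library. Read depth, unknown here, limits the number of weak peaks called, and the part of depth in the genotype ratios was not tested.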
